A study of Mus musculus with 23 samples.

Results

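The let-7 family main arms were read here as the 8 assays named let-7a, let-7b, let-7c, let-7d, let-7e, let-7f, let-7g and let-7i, without a hash sign, out of 522 assays in a table of stem-loop RT-qPCR values from mouse retina. The choice was made by assay name and used no measured value. The table covers 23 samples of retina from mice of a mixed background strain, in 7 groups and 2 profiling sets. The first set holds 3 wild-type (WT) samples, 3 double-knockout (DKO) samples titled Chx10Cre with Rb lox/lox and p107 -/-, 3 DicKO samples titled Dicer1 lox/lox, and 4 DKO_DicKO samples that carry the DKO alleles and Dicer1 lox/lox. The second set holds 3 WT, 3 DKO and 4 DKO_P53KO samples, for which the labels give only these names, read here as the DKO genotype without and with loss of p53. Chx10 drives Cre in retinal progenitor cells, so the floxed alleles are removed in cells of that lineage and not in every cell of the eye. The DicKO title names no Cre, and how complete the loss of Dicer1 was is not given. The labels give no age or litter and do not say that samples came from separate animals, so p-values here cover only the spread from sample to sample, which may be technical.

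Mature let-7 miRNAs are cut from hairpins by Drosha and then Dicer, and they repress mRNAs that pair with their seed, bases 2 to 8 counted from the 5′ end. In vertebrates they are low in early embryonic cells and high in differentiated tissue, the RNA-binding protein Lin28 blocks the maturation of most of them, and known targets include Lin28, Hmga2, Myc and Ras genes. In the retina let-7 is known for its part in the change of progenitor competence over developmental time and in the response of Müller glia.

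The 8 members carry one seed and differ only outside it, which is why they are shown together. In RefSeq's table (GRCm38.p6) each is 22 bases long, and the seed is in capitals.
let-7a: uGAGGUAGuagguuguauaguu
let-7b: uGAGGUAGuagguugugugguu
let-7c: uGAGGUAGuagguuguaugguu
let-7d: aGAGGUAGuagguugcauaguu
let-7e: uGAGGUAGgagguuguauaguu
let-7f: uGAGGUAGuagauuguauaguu
let-7g: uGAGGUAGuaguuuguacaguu
let-7i: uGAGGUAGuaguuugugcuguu
miR-98: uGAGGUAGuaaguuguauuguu
All 8 members matched by name, and 11 of the 1679 mature sequences in that table carry this seed. Substitutions are written with the let-7a base first, its position counted from 1 at the 5′ end, and then the base of the other member. let-7c has A19G, let-7e has U9G and let-7f has G12A, so these 3 are 1 base from let-7a. let-7b has A17G and A19G, let-7d has U1A and U16C, and let-7g has G12U and U18C. let-7i is the most distant from let-7a, with G12U, A17G, U18C and A19U. The target sequences of the assays were not used here, so the match is by name, and whether an assay also read a neighbour that differs by 1 base was not tested.

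The genes of the members lie at several places, and the positions below are those of the RefSeq hairpins in build GRCm38.p6. let-7a, let-7c and let-7f each have genes at more than one place, so their assays cannot tell the sources apart. Mirlet7c-2 at chr15:85706603-85706697 and Mirlet7b at chr15:85707319-85707403 lie 621 bases apart on the plus strand within the span of the noncoding gene Lncppara. Mirlet7d at chr13:48536012-48536114, Mirlet7f-1 at chr13:48537829-48537917 and Mirlet7a-1 at chr13:48538179-48538272 are neighbours on the minus strand. Mirlet7e at chr17:17830352-17830444 lies with Mir99b and Mir125a within the span of Spaca6. Mirlet7c-1 at chr16:77599657-77599750 follows Mir99a, and Mirlet7a-2 at chr9:41536716-41536811 lies with Mir100 and Mir125b-1 within the span of Mir100hg. Mirlet7g at chr9:106178840-106178927 lies within the span of Wdr82, Mirlet7i at chr10:122985640-122985724 overlaps no other gene of the table, and Mirlet7f-2 at chrX:151912346-151912428 lies with Mir98 within the span of Huwe1.

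The measured quantity is the quantification cycle (Cq), the PCR cycle at which the signal crosses a threshold. It falls by about 1 cycle for each doubling of the template. A well with a Cq of 32 or less was taken as detected, and 91 to 228 assays per sample were detected in the first set against 307 to 350 in the second. In the second set all 80 member values were determined, whereas in the first set 73 of 104 were. The let-7a assay was undetermined in all 13 samples of the first set, although it had a Cq of 20 or lower in every sample of the second set. It was the only assay of the table with that pattern, and 31 assays were undetermined throughout the first set with a Cq of 30 or lower throughout the second. An undetermined well of the first set can therefore not be taken by itself as a measurement of a low level, and let-7a has no value there. Whether this applies to undetermined wells of assays that gave values in other samples of the first set was not tested. let-7f was determined in only 2 samples of the first set, at Cq 24.4 in WT replicate 2 and 25.1 in DKO replicate 2.

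The members had low Cq values beside most other assays with a value. Among the 320 assays determined in all WT samples of the second set, they ranked from 7 (let-7e) to 66 (let-7f), counted from the lowest mean Cq. In WT of the first set the 6 members determined throughout ranked from 10 (let-7e) to 39 (let-7i) of 158. In WT of the second set the mean Cq was 17.1 ± 0.54 (SD, n = 3) for let-7e, 17.3 ± 0.39 for let-7c, 18.0 ± 0.58 for let-7b, 18.8 ± 0.52 for let-7a, 18.9 ± 0.45 for let-7d, 19.4 ± 0.53 for let-7g, 19.7 ± 0.36 for let-7i and 21.3 ± 0.57 for let-7f. Each step of this order held in all 3 samples except let-7e before let-7c and let-7a before let-7d, which each held in 2 of 3. In WT of the first set the order was let-7e at 21.8 ± 1.16, let-7c at 21.9 ± 1.00, let-7b at 22.6 ± 1.09, let-7d at 24.0 ± 0.99, let-7g at 24.3 ± 1.10 and let-7i at 24.4 ± 1.29. The steps from let-7e to let-7c and from let-7g to let-7i held in 2 of 3 samples there. The 6 members measured in both sets thus came in the same order of mean Cq in both WT groups. The efficiencies of the assays are not known, so this is an order of Cq and not an order of abundance.

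**Figure D1:**
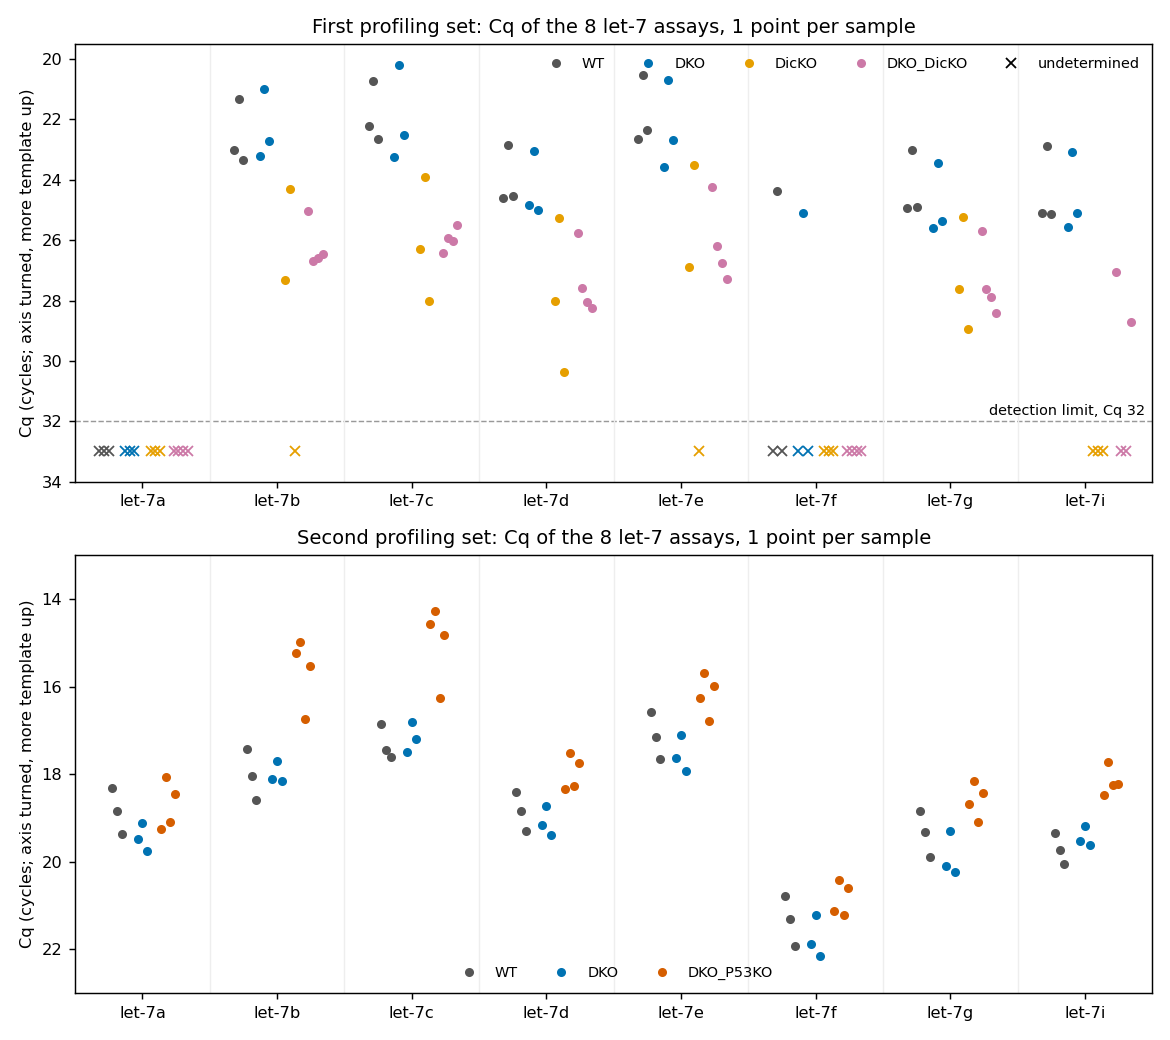
Cq in cycles of the 8 let-7 assays, 1 point per sample, by group, for the first set (top) and the second set (bottom); the axes are turned so that more template is up, and crosses mark undetermined wells. let-7a is undetermined in all 13 samples of the first set and lies between 18.1 and 19.8 in all samples of the second.

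Between samples the members moved as a group with the other assays, so they were set against each other within a sample. The difference of the Cq of 2 members in one sample needs no scaling, and its SD over the 10 samples of the second set says how closely the pair moved together. Of the 28 pairs the most alike was let-7e with let-7g, at 0.115 cycles, and the least alike was let-7a with let-7b, at 1.12 cycles. let-7b and let-7c moved together, at 0.173 cycles, and both were far from the rest, at 0.658 to 1.12 cycles in each pair with another member. let-7d, let-7e, let-7f and let-7g formed a second close group, with 0.115 to 0.261 cycles in all their pairs.

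**Figure D2:**
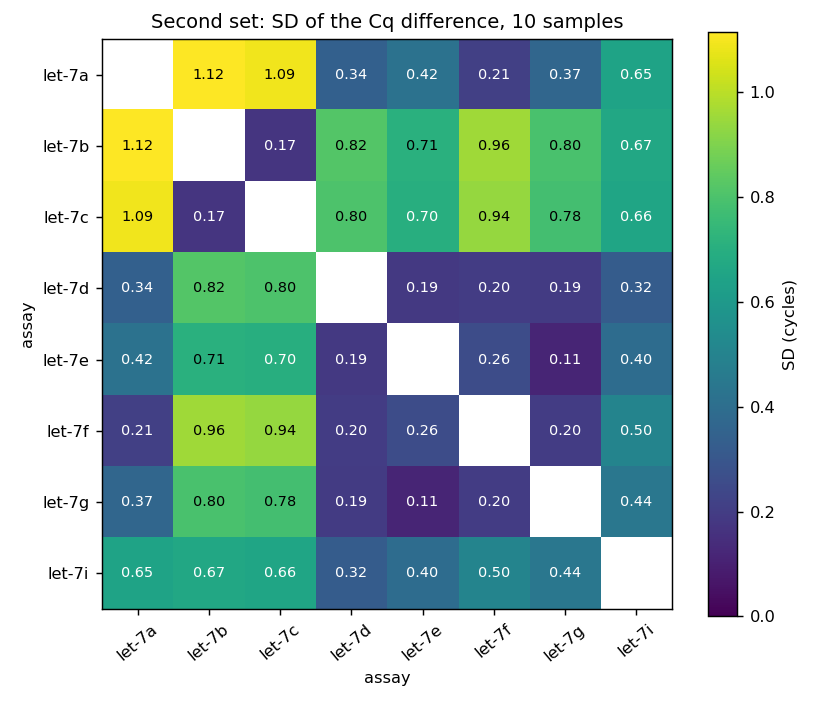
SD in cycles, over the 10 samples of the second set, of the Cq difference of each pair of let-7 assays. The dark cell of let-7b with let-7c stands at 0.17 while both are bright against let-7a, at 1.12 and 1.09.

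The closeness of a pair did not follow the count of differing bases. let-7a and let-7c differ at 1 base and stood at 1.09 cycles, let-7a and let-7f also differ at 1 base and stood at 0.212 cycles, and let-7e and let-7g differ at 3 bases and were the closest pair. let-7b and let-7c differ at 1 base and have neighbouring genes on chromosome 15, and let-7a, let-7d and let-7f have neighbouring genes on chromosome 13 and stood at 0.197 to 0.344 cycles. These are descriptions over samples that share 3 genotypes, with no test. In the first set let-7b and let-7c stood at 0.654 cycles over 12 samples, and the least alike pair determined in all 13 samples was let-7c with let-7g, at 1.06 cycles.

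Outside the let-7 name, the assays closest to the mean Cq of the 8 members over the 10 samples of the second set were miR-671-3p at 0.202 cycles, miR-532-3p at 0.209, miR-491 at 0.230, miR-148a at 0.231 and miR-125a-5p at 0.235. The median over the 271 assays compared was 0.705 cycles. Among the members themselves, let-7e stood at 0.143 cycles from the mean of the other 7 and let-7b at 0.715. In the first set the closest to the mean of let-7c, let-7d and let-7g, the 3 members determined in all 13 samples, were miR-191 at 0.295 cycles, miR-140 at 0.296, miR-320 at 0.320, miR-30c at 0.329 and miR-484 at 0.364, with a median of 0.698 over 58 assays. No assay was among the closest 5 in both sets.

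For comparisons between groups each Cq was scaled within its sample. The scaled value is the mean Cq of the reference assays, those detected in all samples of the fit, minus the Cq of the assay, and is therefore a log2 quantity relative to these assays. For the first set the reference had 61 assays, 3 of them members. It had 284 with all 8 members for the second set, and 145 with 6 members where both sets were fitted together. Undetermined wells were set to a floor of -2.94 in the first set, and detected values below the floor were raised to it. This raised 778 of the 2011 detected values of the first set, 0 of them of members. The medians and shares over all assays below include such assays, whose changes the floor can draw toward 0. All changes below are log2 changes of scaled values, with p-values from limma adjusted by Benjamini-Hochberg over all assays tested and a threshold of 0.05. Retina neuron and photoreceptor markers were present: 6 of the 7 marker assays were detected in at least 1 sample of every group, among them miR-124a, miR-9, miR-181a and the miR-183 cluster, and one of the 2 miR-124a assays was not detected in any sample.

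In DKO_P53KO against DKO of the second set the members moved in both directions. Relative to the reference, let-7b rose and let-7a and let-7f fell, where without scaling the direction of let-7a and let-7f turned. In scaled values let-7a was 4.78 to 5.12 in the 3 DKO samples and 3.49, 4.24, 4.29 and 4.16 in DKO_P53KO replicates 1 to 4. All 4 DKO_P53KO samples lay below all DKO and all WT samples, and replicate 1 was the lowest. The log2 change of let-7a was -0.90 ± 0.24 (SE, 3 against 4 samples, adjusted p = 0.0170). let-7f was 2.37 to 2.81 in DKO and 1.61, 1.89, 2.16 and 2.00 in DKO_P53KO, again with no overlap, and its change was -0.72 ± 0.21 (adjusted p = 0.0241). let-7b was 6.48, 6.33 and 6.37 in DKO and 7.51, 7.31, 6.66 and 7.07 in DKO_P53KO. The groups did not overlap, replicate 3 came closest to DKO, and the change was 0.74 ± 0.23 (adjusted p = 0.0324).

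Of the 8 members 1 was thus called higher and 2 lower, where 19.7% of the 330 assays tested were called higher and 21.2% lower, so the share of members called was near that of all assays. The median change of the members was -0.35 beside -0.05 over all assays. The other 5 members did not pass the test. let-7c stood at 0.55 ± 0.27 with an adjusted p of 0.126, and let-7d, let-7e, let-7g and let-7i had changes of -0.51 to -0.25. The calls rested on few samples. Leaving out DKO replicate 1 left 0 members called, leaving out DKO replicate 2 left 1, and leaving out DKO_P53KO replicate 3 gave 6. let-7a was called in 9 of the 10 fits that left out 1 sample, let-7f in 8 and let-7b in 3. The let-7b call was lost without any one of the 3 DKO samples, WT replicates 2 or 3, or DKO_P53KO replicates 1 or 2, with an adjusted p of 0.0519 to 0.0886. With only the 7 samples compared in the fit, 0 members were called.

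**Figure D3:**
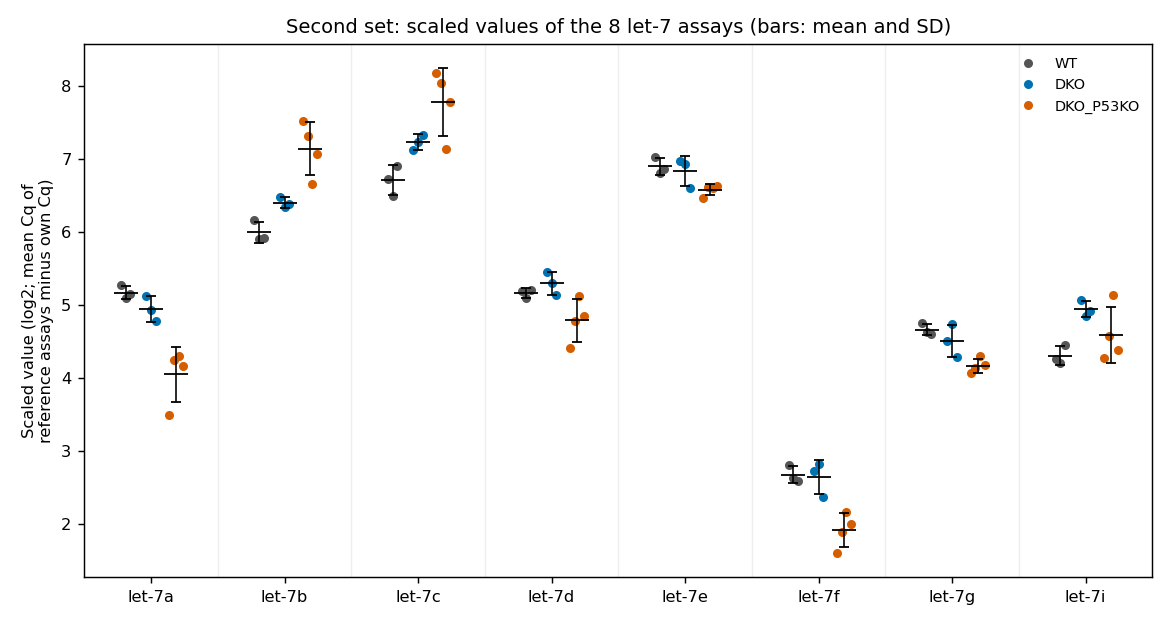
Scaled values (log2, mean Cq of 284 reference assays minus own Cq) of the 8 let-7 assays in the 10 samples of the second set; points are samples, bars the group mean and SD. In DKO_P53KO the points of let-7a and let-7f lie below and those of let-7b above both other groups; without scaling, let-7a and let-7f have a lower mean Cq in DKO_P53KO than in DKO.

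Most assays had a lower Cq in DKO_P53KO, and the scaling takes this out. The median over the 306 assays determined in all 7 samples was a shift of -1.50 cycles against DKO. In raw Cq the shift was -2.37 cycles for let-7b and -2.18 for let-7c, whereas it was -0.733 for let-7a and -0.907 for let-7f, whose groups overlapped. The remaining 4 members had shifts of -1.38 to -1.12 cycles. All 8 members thus had earlier mean Cq in DKO_P53KO, let-7b and let-7c by more than the median assay and the other 6 by less.

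Within single samples, free of any scaling, the distance from let-7a to let-7b grew from WT to DKO to DKO_P53KO. This pair was the least alike over these same samples. Its values restate the DKO_P53KO calls of let-7a and let-7b on another scale and are no second test. let-7a minus let-7b was 0.889, 0.816 and 0.766 cycles in WT, 1.36, 1.41 and 1.60 in DKO, and 4.02, 3.07, 2.37 and 2.91 in DKO_P53KO. No 2 of the 3 groups overlapped. let-7a minus let-7c was 1.40 to 1.75 cycles in WT, 1.99 to 2.55 in DKO and 2.83 to 4.68 in DKO_P53KO, also without overlap. let-7a minus let-7e was 1.71 to 1.75 in WT, 1.82 to 2.00 in DKO and 2.31 to 2.98 in DKO_P53KO. let-7a against let-7f was the pair with let-7a that overlapped between DKO and DKO_P53KO, at -2.41 to -2.11 and -2.35 to -1.88 cycles.

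**Figure D4:**
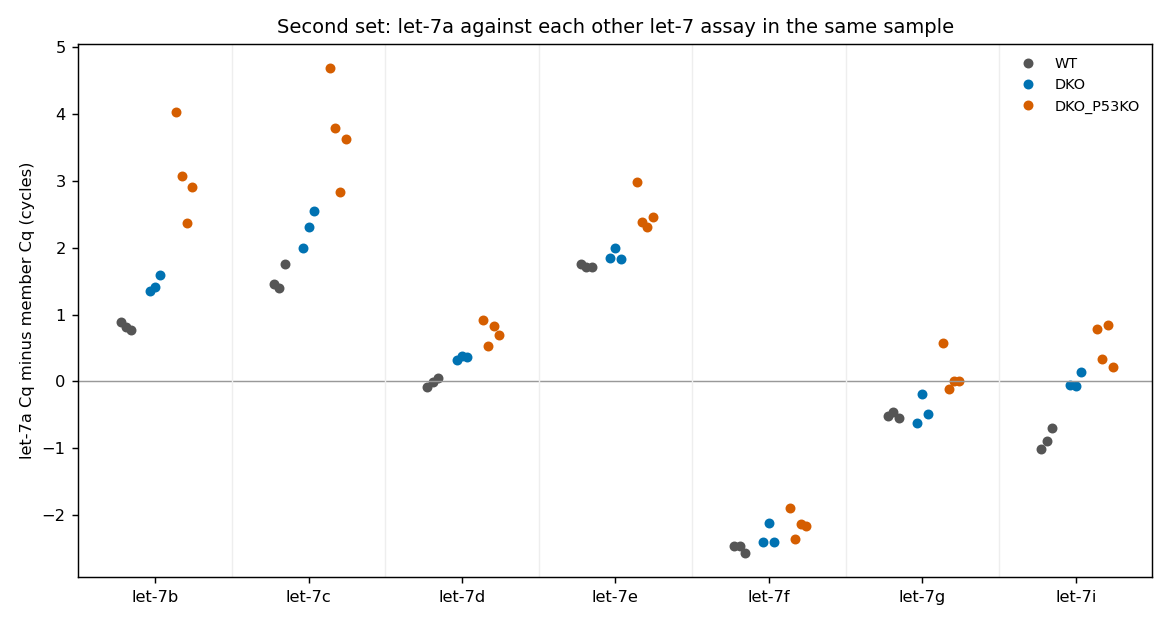
Cq of let-7a minus the Cq of each other let-7 assay in the same sample, in cycles, for the second set; 1 point per sample. For let-7b and let-7c the 3 groups are apart, with DKO_P53KO highest, at 2.37 to 4.02 and 2.83 to 4.68 cycles.

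Counted over all pairs, 15 of the 28 member pairs (53.6%) did not overlap between DKO_P53KO and DKO, where 45.0% of the 40186 pairs of all assays determined in the set did not. let-7b was apart from each of the 6 members other than let-7c, and let-7a from 6 of its 7 partners. Between DKO and WT 19 of 28 pairs (67.9%) did not overlap, against 27.9% of all pairs. The pairs share members, so neither count is one of independent values.

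The order of the members by Cq differed between WT, DKO and DKO_P53KO. In DKO_P53KO it was let-7c at 15.0 ± 0.89 cycles (SD, n = 4), let-7b at 15.6 ± 0.77, let-7e at 16.2 ± 0.47, let-7d at 18.0 ± 0.40, let-7i at 18.2 ± 0.31, let-7g at 18.6 ± 0.40, let-7a at 18.7 ± 0.56 and let-7f at 20.8 ± 0.40. let-7c came before let-7b and let-7b before let-7e in all 4 samples. In WT the order of mean Cq was let-7e, let-7c and let-7b. Part of the change was already present in DKO, where let-7c came before let-7e, and let-7e before let-7b, in all 3 samples. There let-7i, at 19.4 cycles, also had a lower mean Cq than let-7g, at 19.9. The steps from let-7d to let-7i and from let-7g to let-7a held in 3 of 4 samples.

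Against WT of the same set, DKO_P53KO samples had 4 of 8 members called, 2 higher and 2 lower, where 21.8% of the 330 assays were called higher and 25.2% lower. let-7b rose by 1.14 ± 0.23 (adjusted p = 0.00371), from 5.99 ± 0.14 in WT to 7.13 ± 0.37 (SD), or 2.21-fold. let-7c rose by 1.07 ± 0.27 (adjusted p = 0.0102), with 6.73, 6.49 and 6.89 in WT and 8.17, 8.03, 7.12 and 7.78 in DKO_P53KO. Both were higher in all 4 DKO_P53KO samples than in any WT sample. The share of members called was again near that of all assays. let-7a was lower by 2.18-fold, at -1.12 ± 0.24 (adjusted p = 0.00448), and let-7f at -0.76 ± 0.21 (adjusted p = 0.0168), where without scaling both turned to higher. The 4 others ranged from -0.49 to 0.28, and the median of the members was -0.34 beside -0.07 over all assays. These samples are also those of the comparison with DKO, so the 2 results are not independent.

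Other miRNA markers moved with the same samples, relative to the same reference. Their counts stand beside 19.7% of 330 assays called higher and 21.2% lower in DKO_P53KO against DKO. Of the retina list 3 of 6 assays tested fell in DKO_P53KO against DKO, and the summed relative quantity of the list was 480 to 520 in WT, 338 to 427 in DKO and 67.2 to 303 in DKO_P53KO. Both assays of the vessel marker miR-126 rose, with sums of 17.5 to 22.1, 7.92 to 15.0 and 18.2 to 44.3. Of the white blood cell and microglia list 1 of 5 rose, with sums of 6.47 to 9.30, 7.69 to 14.0 and 10.4 to 24.1, and miR-142-5p was not detected in WT or DKO. In the list for pigment epithelium, ciliary body and lens 2 of 3 fell, with sums of 723 to 791, 525 to 947 and 184 to 381. One of these, miR-204, turned to higher without scaling. The other, miR-211, changed by -8.69 with 2 of the 10 samples of the fit at the floor. Without scaling, and over determined wells only, miR-211 changed by -1.225. In the muscle list 1 of 4 fell. Their part in the let-7 results was not tested. In such bulk samples fewer cells of a type and less RNA per cell cannot be told apart.

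DKO against WT was measured in both sets, with separate WT and DKO samples in each. No member passed the test within a set. In the first set 0 of 6 members were called beside 17.3% of 133 assays, 0 of the 6 also at an unadjusted p under 0.05, and the smallest adjusted p was that of let-7g, at -0.23 ± 0.17 (adjusted p = 0.511). The 6 changes ranged from -0.23 to 0.57 with a median of 0.05, beside 0 over all assays. In the second set 0 of 8 were called beside 0.647% of 309 assays, 1 of the 8 at an unadjusted p under 0.05. That member was let-7i, at 4.26, 4.20 and 4.45 in WT and 5.06, 4.85 and 4.91 in DKO. Its groups did not overlap and its change was 0.64 ± 0.26 (adjusted p = 0.431). The 8 changes ranged from -0.23 to 0.64, with a median of 0.05 beside 0.08.

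With both sets in one fit and the set as a term, let-7b rose in DKO. Its scaled values were 3.71, 3.40 and 3.17 in WT and 3.97, 4.04 and 3.95 in DKO of the first set, and 3.81, 3.65 and 3.60 in WT and 4.23, 4.07 and 4.07 in DKO of the second. All DKO samples were above all WT samples of their own set, and the change was 0.50 ± 0.13 (adjusted p = 0.0251), or 1.41-fold. This was 1 of 6 members tested, beside 8.98% of 167 assays called higher. The 6 changes had a median of 0.22, beside -0.07 over all assays, and the other 5 lay between -0.18 and 0.38. The call was lost under several settings, among them without scaling, with the median of the reference in place of its mean, and when any one of 6 of the 12 samples was left out: WT replicates 2 or 3 of either set, DKO replicate 2 of the first set or DKO replicate 1 of the second. The adjusted p without one sample ranged from 0.0144 to 0.0651.

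The same let-7b Cq values can be set against the other members without scaling, which restates the call on another scale and is no second test. Of the 15 pairs of members measured in both sets, 3 (20%) did not overlap between DKO and WT in the same direction in both, where 11.2% of the 10440 pairs of all assays did so. All 3 pairs held let-7b, with let-7d, let-7e and let-7g, so they are not independent of each other. let-7b minus let-7g was -1.93, -1.70 and -1.54 cycles in WT and -2.41, -2.48 and -2.66 in DKO of the first set. In the second set it was -1.41, -1.28 and -1.31 in WT and -1.98, -1.60 and -2.09 in DKO. let-7b minus let-7e went from 0.711 ± 0.32 to -0.02 ± 0.34 cycles (SD, n = 3 each) in the first set and from 0.901 ± 0.044 to 0.433 ± 0.19 in the second. let-7b minus let-7d was -1.58, -1.55 and -1.21 cycles in WT and -1.65, -2.06 and -2.30 in DKO of the first set, and went from -0.831 ± 0.13 to -1.10 ± 0.12 in the second. In each of the 3 pairs let-7b was earlier, relative to its partner, in DKO of both sets.

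The DKO effect did not pass a test of difference between the sets for any of 6 members, beside 18.6% of 167 assays. At an unadjusted p under 0.05 there was 1, let-7i, with 0.58 ± 0.26 (adjusted p = 0.146) more in the second set. Over both sets, 4 of 6 retina marker assays passed the test, miR-182, miR-183 and miR-96 lower and miR-9 higher. Both miR-126 assays were lower and miR-146a, a white blood cell marker, was higher. Of the 167 assays tested over both sets 8.98% were called higher, and the share called lower is not given here. In the first set the pigment epithelium list summed to 33.7 to 52.2 in WT and 72.2 to 84.3 in DKO, and the retina list to 36.7 to 42.4 and 43.0 to 47.0. By limma, 0 of the 6 retina assays tested in the first set were called higher and 2 lower. These were miR-181a at -0.67 (adjusted p = 0.0265) and miR-182 at -1.67 (adjusted p = 0.019). The sum is weighted to the assays with the highest values. miR-182, miR-183 and miR-96 had negative changes in both sets and miR-9 positive ones. In the second set 0 of the 6 were called. The sums of the second set differed. There the pigment epithelium list summed to 723 to 791 in WT and 525 to 947 in DKO, and the retina list to 480 to 520 and 338 to 427. The DKO effect on miR-204, of the pigment epithelium list, differed between the sets by limma, at -1.11 (adjusted p = 0.0421). Of 6 retina assays tested for this 1 was called higher and 1 lower. Their part in the let-7b result was not tested.

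Dicer cuts the let-7 hairpin to its mature form, and the first set holds 2 comparisons of samples floxed for Dicer1 with samples that are not. Relative to the reference, 4 of 6 members were lower in DicKO than in WT, beside 28.6% of the 133 assays called lower. let-7i was determined in all 3 WT samples, at Cq 25.1, 22.9 and 25.1, and undetermined in all 3 DicKO samples. Set against the floor it was at least 8.33-fold lower, a log2 change of -3.06 ± 0.58 (adjusted p = 0.00323), and the bound holds only if an undetermined well means no signal by cycle 32. let-7b was at 2.16, 1.98 and 1.65 in WT and 0.244, 1.11 and the floor in DicKO, with a change of -2.46 ± 0.80 (adjusted p = 0.0391). let-7e was at 2.52, 2.77 and 2.63 in WT and 0.687, 1.88 and the floor in DicKO, with a change of -2.76 ± 0.94 (adjusted p = 0.0452). let-7d was at 0.574, 0.429 and 0.439 in WT and -0.44, 0.15 and -1.31 in DicKO, with a change of -1.02 ± 0.31 (adjusted p = 0.0323). Every DicKO sample with a determined value of let-7b, let-7d or let-7e lay below every WT sample. The undetermined wells of let-7b and let-7e in replicate 3 enter these changes at the floor, under the same condition as for let-7i.

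The sizes for let-7b, let-7d and let-7e came in large part from DicKO replicate 3, where let-7b and let-7e were undetermined and 91 assays were detected, the fewest of any sample. Without it their changes were -1.07, -0.45 and -1.17, and 2 members were called. The count was 1 without any one of the 3 WT samples or without DicKO replicate 1, and 2 without DKO replicate 1 or DKO replicate 2. let-7i was called in all 13 fits that left out 1 sample, let-7d in 8, let-7b in 7 and let-7e in 3.

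let-7g was the exception among the members. Its scaled values were 0.233, 0.274 and 0.101 in WT and -0.05, 0.18 and 0.13 in DicKO, which overlapped, and the change was -0.12 ± 0.17 (adjusted p = 0.617). let-7c was lower in all 3 DicKO samples, at 1.29, 1.50 and 1.05 against 2.33 to 2.96 in WT, and did not pass the test (-1.33 ± 0.61, adjusted p = 0.0936). The 6 members had a median change of -1.89, beside -0.25 over all assays.

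**Figure D5:**
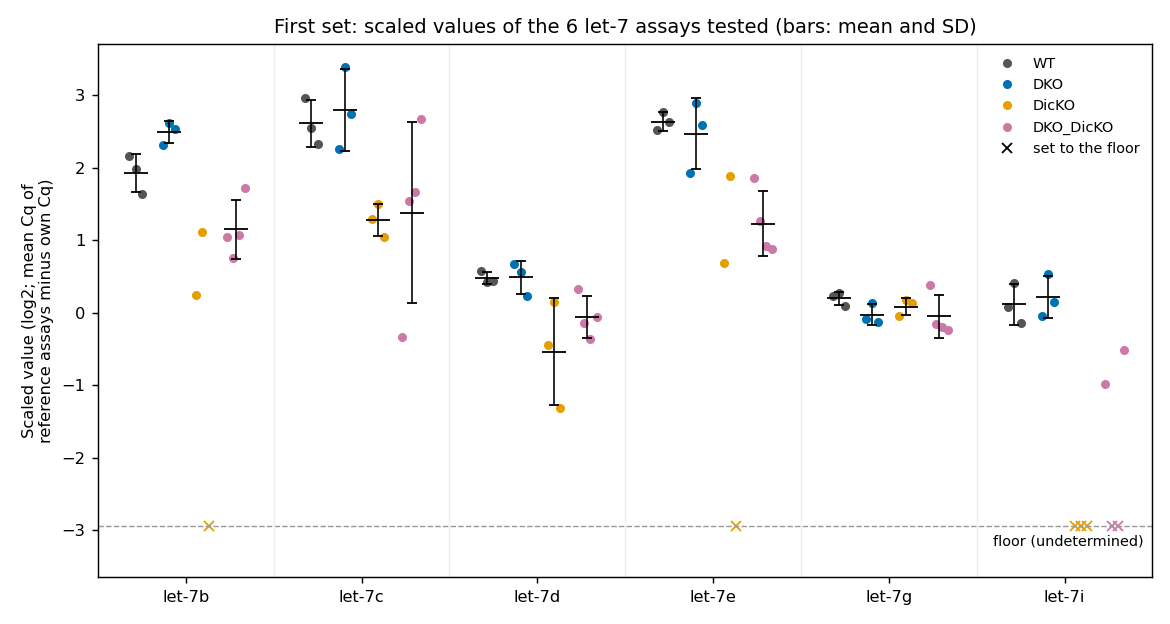
Scaled values (log2, mean Cq of 61 reference assays minus own Cq) of the 6 let-7 assays tested in the 13 samples of the first set; points are samples, bars the group mean and SD where no sample is undetermined, and crosses values set to the floor of -2.94. let-7i sits on the floor in all 3 DicKO samples and 2 of 4 DKO_DicKO samples, while let-7g lies between -0.24 and 0.39 in every group.

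In raw cycles most assays were later in these samples. The mean Cq of the reference was 24.5 ± 1.04 (SD, n = 3) in WT and 27.4 ± 1.84 in DicKO, and the median shift over the 85 assays determined in all 6 samples was 2.89 cycles. let-7g was later by 2.98 cycles, let-7d by 3.88 and let-7c by 4.20. Scaling takes out the shift that the assays share, so the log2 changes above measure only what the members lost beyond the mean assay.

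In DKO_DicKO against DKO 1 of 6 members was called lower, beside 27.2% of 125 assays. let-7i was at Cq 25.6, 23.1 and 25.1 in DKO, 27.1 and 28.7 in DKO_DicKO replicates 1 and 4, and undetermined in replicates 2 and 3. Its change, with these 2 at the floor, was -2.06 ± 0.54 (adjusted p = 0.0139). It was -0.96 (adjusted p = 0.0514) with undetermined wells left missing, and the adjusted p was 0.125 with only these 2 groups in the fit and 0.0565 without DKO replicate 2. Leaving out DicKO replicate 3 raised the count of called members to 3, and leaving out DKO_DicKO replicate 4 raised it to 2.

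The other 5 members had changes of -1.41 to -0.03. let-7c was at 2.26 to 3.39 in DKO and -0.33, 1.54, 1.66 and 2.67 in DKO_DicKO, an overlap, with a change of -1.41 ± 0.56 (adjusted p = 0.0797). let-7g again stood nearest to 0, at -0.03 ± 0.16 (adjusted p = 0.967). The median of the members was -1.29 beside -0.11 over all assays. In raw Cq let-7c was later by 3.97 cycles, let-7b by 3.90, let-7e by 3.80, let-7d by 3.11 and let-7g by 2.58, where the median of 73 assays was 2.88.

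Differences from let-7g in the same sample need no scaling. let-7g is the member whose changes above stood nearest to 0, so these values restate the changes of the other members on another scale and are no second test. The share of all assay pairs that did not overlap was not computed for these groups. let-7e minus let-7g was -2.28, -2.50 and -2.53 cycles in WT, -2.02, -2.75 and -2.71 in DKO, -0.73 and -1.71 in 2 DicKO samples, and -1.46, -1.42, -1.12 and -1.11 in DKO_DicKO. All samples floxed for Dicer1 with a value were above all others. let-7b minus let-7g was -2.66 to -1.54 in WT and DKO, -0.29 and -0.93 in DicKO, and -0.66, -0.91, -1.27 and -1.96 in DKO_DicKO, where only replicate 4 fell within the range of the former. let-7d minus let-7g was -0.76 to -0.16 in WT and DKO and -0.17 to 1.45 in the floxed samples, where 1 sample overlapped. let-7c minus let-7g was -3.25 to -2.23 in WT and DKO, and -1.34, -1.32 and -0.92 in DicKO. In DKO_DicKO it was 0.72, -1.69, -1.86 and -2.90, where replicate 4 fell within the range of WT and DKO. let-7i minus let-7g was -0.39 to 0.24 in WT and DKO. Among the floxed samples let-7i had a value only in DKO_DicKO replicates 1 and 4, where the difference was 1.38 and 0.28.

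DKO_DicKO and DicKO did not differ in any of 5 members tested by limma, beside 0.00% of 99 assays called. At an unadjusted p under 0.05 there were 12 assays, 1 of them a member, let-7b, at 1.68 ± 0.73 (adjusted p = 0.388). The Dicer1 effect with and without loss of Rb and p107 was not called different for any of 6 members, beside 5.93% of 135 assays. The smallest adjusted p was that of let-7i, at 1.00 ± 0.80 (adjusted p = 0.598), and 0 of the 6 had an unadjusted p under 0.05. The standard errors of 0.23 to 1.29 in this test are wide beside the changes themselves.

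Marker lists moved in these comparisons as well. Of all assays tested, 28.6% of 133 were called lower in DicKO against WT and 27.2% of 125 in DKO_DicKO against DKO. The retina list summed to 36.7 to 42.4 in WT, 43.0 to 47.0 in DKO, 12.7 to 17.5 in DicKO and 13.5 to 21.9 in DKO_DicKO. Of its 6 assays tested, 3 were lower and 1 higher in DicKO, and 1 was lower and 2 higher in DKO_DicKO. In DKO_DicKO the sum was thus lower than in DKO while more of the assays were called higher than lower. Such a sum is weighted to the assays with the highest values. The share of all assays called higher is not given here for these comparisons. The pigment epithelium, ciliary body and lens list summed to 40.2 to 53.6 in DicKO and 27.4 to 91.8 in DKO_DicKO, with 0 and 1 of 3 assays lower. No vessel, muscle or white blood cell assay passed the test, and each of these lists summed to less than 1 in every sample. Their part in the let-7 results was not tested.

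The relatives of the members were a list of the 7 minor arms (hash sign), the same-seed miR-98 and the miRNAs encoded beside let-7 genes, miR-99a, miR-99b, miR-100, miR-125a-5p and miR-125b. miR-98, let-7b# and let-7f-1# were undetermined in all 23 samples. In DKO_P53KO against DKO 3 of 10 tested passed, 1 higher and 2 lower, beside 19.7% of 330 assays called higher and 21.2% lower. The minor arm let-7a# rose by 1.70 ± 0.32 (adjusted p = 0.00408) while the main arm let-7a fell, where without scaling the main arm turned. RefSeq lists one and the same sequence for the minor arms of Mirlet7a-1 and Mirlet7c-2, which is shown because it bears on what this assay can read.
let-7a-1-3p: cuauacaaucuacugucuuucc
let-7c-2-3p: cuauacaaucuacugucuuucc
let-7d-3p: cuauacgaccugcugccuuucu
A let-7a# value therefore cannot be assigned to let-7a or let-7c genes. let-7d# changed by -1.65 ± 0.35 (adjusted p = 0.00680), or by -0.020 without scaling. miR-99b, encoded 136 bases before let-7e, changed by -1.25 ± 0.19 (adjusted p = 0.00137), a direction that turned without scaling, where let-7e itself stood at -0.25 ± 0.18 and miR-125a-5p, its neighbour on the other side, at -0.26 ± 0.22. Against WT the same 3 passed, at 1.78, -2.11 and -1.48, beside 21.8% of 330 assays called higher and 25.2% lower. Without scaling let-7d# stood at -0.86 (adjusted p = 0.152) and miR-99b at -0.23 (adjusted p = 0.681) against WT, and neither passed.

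In the first set the neighbours of let-7c-1 and let-7a-2 were higher in DKO than in WT. miR-100 rose by 1.58 ± 0.28 (adjusted p = 0.00526), miR-99a by 1.31 ± 0.37 (adjusted p = 0.0345) and miR-125b by 0.95 ± 0.22 (adjusted p = 0.0174). This made 3 of 6 tested, beside 17.3% of 133 assays called in either direction. miR-100 passed in all 13 fits that left out 1 sample, miR-125b in 9 and miR-99a in 4, where the adjusted p reached 0.110 without DicKO replicate 3. Without scaling none of the 3 passed in the first set, with an adjusted p of 0.979 each. None passed with the detection limit at Cq 35 either, with an adjusted p of 0.364 for miR-100, 0.683 for miR-99a and 0.0756 for miR-125b. let-7c, encoded at chr16 between miR-99a and miR-125b-2, stood at 0.19 ± 0.61. In the second set 0 of 10 passed, beside 0.647% of 309 assays, with miR-100 at 0.46 ± 0.58 and miR-99a at 0.42 ± 0.60. Over both sets in one fit these 3 passed again, with 0.88 for miR-99a, 1.04 for miR-100 and 0.72 for miR-125b, beside 8.98% of 167 assays called higher. Without scaling they did not pass, with an adjusted p of 0.728, 0.701 and 0.771. The same 3 neighbours were lower in both comparisons of floxed with unfloxed Dicer1. In DicKO against WT 5 of 6 tested were lower, beside 28.6% of 133 assays, from miR-100 at -2.18 ± 0.28 to miR-125b at -0.80 ± 0.22. Without DicKO replicate 3, miR-99a, miR-99b and miR-125b stood at -1.49, -0.75 and -0.49 and did not pass. In DKO_DicKO against DKO 3 of 5 were lower, beside 27.2% of 125 assays. The changes were -3.43 ± 0.35 for miR-99a, -2.92 ± 0.27 for miR-100 and -1.38 ± 0.21 for miR-125b. There miR-99b and miR-125a-5p, the neighbours of let-7e, stood at -0.12 ± 0.44 and -0.65 ± 0.31.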

How the data were processed

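The deposited table holds quantification cycles, which the authors exported without normalization, per the file headers; undetermined wells carry no value. Per the labels, a microRNeasy kit gave total RNA, which went through reverse transcription with 522 stem-loop primers and 14 cycles of pre-amplification. The software, threshold and baseline are not given in the sources used here. The 10 columns without a name were empty.

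Detection meant a Cq of 32 or less. Values were scaled to the mean Cq of a reference, the assays that every sample of the fit detected. Undetected values, and detected values below the floor, were set to a floor. It is what Cq 32 comes to after scaling, at its highest over the samples fitted. Assays detected in all samples of at least 1 compared group were fitted with limma 3.58.1 in R 4.3.3 (two-sided, Benjamini-Hochberg over all assays tested, threshold 0.05), with all groups of a set in one fit and no replicate block. The fit was tested on simulated data. Groups came from the labels. Log2 changes were named for members called, or for the member with the smallest adjusted p where none was called; the others are given by range and median, and those named beyond this rule were chosen after their values were seen. Members, marker lists and the list of relatives were chosen with earlier results of these data known. Alternatives changed the scaling, the detection limit, the treatment of undetected values, the samples fitted and eBayes. Sequences and gene positions are RefSeq's for GRCm38.p6. Counts of pairs that did not overlap used assays detected in every sample compared.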

Additional observations from a re-analysis of the deposited data

Results flagged for a closer look

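Of the 13 combinations of a member and a group of 4 samples examined, 3 held a sample far from the other 3, where chance gives about 1 in 20. let-7a in DKO_P53KO replicate 1 was the lowest of its group, with a scaled log2 value of 3.49 against 4.16 to 4.29 in the others. let-7e was also lowest in DKO_P53KO replicate 1, at 6.47 against 6.60 to 6.62. let-7g in DKO_DicKO replicate 1 was the highest, at 0.39 against -0.24 to -0.15.

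For 3 relatives of the members, and for no member, the DKO effect differed between the second and the first set by the limma test of that difference. Of the 167 assays tested 18.6% were called. The second set minus the first was -0.85 for miR-99a (adjusted p = 0.0344), -1.08 for miR-100 (adjusted p = 0.0194) and 1.08 for miR-125a-5p (adjusted p = 0.0344). Of the 12 fits that left out 1 sample, the difference passed in 10 for miR-100, 6 for miR-99a and 2 for miR-125a-5p. Without scaling none of the 3 passed, with an adjusted p of 0.995 each, and miR-99a did not pass with the median of the reference (adjusted p = 0.0761).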

How the results depend on the processing

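The counts of called members stayed within 1.5 times the reported ones in 185 of 216 settings, and the changes of named members kept direction and call in 320 of 377, those of named relatives in 423 of 493. Without scaling 5 changes turned, miR-99b to 0.38, let-7a to 0.73 and let-7f to 0.91 in DKO_P53KO against DKO, and let-7a to 0.13 and let-7f to 0.50 against WT, and the members called were 6 in DKO_P53KO against DKO, 6 in DKO_DicKO against DKO and 0 in DKO against WT over both sets. That last count was also 0 with the median of the reference. With only the compared groups fitted, 0 members were called in DKO_P53KO against DKO and 2 in DicKO against WT; the latter had 2 at a limit of Cq 35 and 1 of 3 with only assays detected in every sample. In DKO_DicKO against DKO 2 were called at Cq 30 and 2 with undetected values left missing. The cause was not tested. Leaving out 1 sample gave 0 to 1 members for DKO against WT over both sets, 0 to 6 for DKO_P53KO against DKO, 3 to 5 against WT, 1 to 5 for DicKO against WT, 0 to 3 for DKO_DicKO against DKO and 0 in the 5 other comparisons. Whether replicate numbers pair the samples is not known. Same-numbered samples correlated at -0.34 to 0.64, over 0.1 in 14 of 27 pairs, and 10 of 23 samples correlated best with their own number. In the first set replicate 2 had the most detected assays in WT, DKO and DicKO, at 228, 226 and 169. In DKO_DicKO replicate 1 had the most, at 157. With the replicate block 0 members were called in DKO against WT over both sets and 2 in DKO_DicKO against DKO. In that block let-7b had an adjusted p of 0.116 over both sets, let-7f 0.0608 in DKO_P53KO against DKO, miR-99b 0.0610 in DicKO against WT, and miR-99a, miR-100 and miR-125a-5p 0.0937, 0.0668 and 0.0735 for the difference of the DKO effect between sets. No other named change lost its call in the block. A reference without let-7 assays changed no count. Some settings left a member without a value, and fits with only the compared groups do not exist for the 3 comparisons that use all their groups. Undetermined wells in the first set limit let-7a, let-7f and let-7i.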
